A study of Mus musculus with 21 samples.

Results

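The 7 genes described here are the interleukin-1 (IL-1) ligands Il1a and Il1b, the receptor antagonist Il1rn, the signaling receptor Il1r1, the decoy receptor Il1r2, the shared co-receptor Il1rap and the related ligand Il18. They were taken by symbol from the 45706 gene identifiers of the expression table, and all 7 passed the minimum of 5 counts over all libraries that left 23815 genes in the test. IL-1α and IL-1β both act through the receptor encoded by Il1r1, which must recruit the accessory protein encoded by Il1rap before it can signal to NF-κB and MAP kinases. Il1rn encodes a secreted antagonist that occupies the receptor without recruiting the accessory protein, and Il1r2 encodes a receptor that binds IL-1 but has no signaling domain. IL-1β and IL-18 are made as inactive precursors and are cut by caspase-1 in inflammasomes. IL-1 released by microglia and by blood-derived myeloid cells is a well known driver of inflammation in the injured brain.

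The libraries came from male C57BL/6 mice of 17 to 24 weeks. The mice had a controlled cortical impact (CCI), which models traumatic brain injury, or a sham operation of craniotomy without impact. Wild-type (WT) mice were compared with Fgg γ390–396A mice, whose fibrinogen has a changed motif that cannot bind the myeloid integrin CD11b/CD18 but still clots. The comparison asks how fibrin binding to that integrin affects innate immune transcription after injury. Microglia were sorted as live CD45low CD11b+ cells (40000 per library) and infiltrating myeloid cells as CD45hi CD11b+ cells (25000 per library). The cells came from tissue at the lesion, and each library pooled 2 brains. There were 7 groups of 3 libraries, namely sham microglia, WT and Fgg γ390–396A microglia at 1 d and at 7 d, and WT and Fgg γ390–396A infiltrating myeloid cells at 1 d. There was 1 sham group, whose library names give no genotype, so an effect of the Fgg allele without injury could not be examined. Infiltrating cells were sorted at 1 d only. The CD45hi CD11b+ gate takes in neutrophils as well as monocytes and macrophages. In these bulk libraries, fewer cells of a type and less RNA per cell cannot be told apart, and p-values measure the spread between libraries of pooled brains.

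Levels are given as CPM, a scaled count with gene length taken out, relative to the TMM-adjusted total of its library. They can be compared between genes per length as well as between libraries. Library totals ran from 18896957 to 51875767 counts (median 27001646), and ribosomal RNA took 43.0% to 58.6% of them. The limit that a count of 0 allows, 3 counts, corresponded to 0.0448 to 0.158 CPM. The summed level of 9 microglial markers was 11598 to 13000.1 CPM in sham microglia, 3172 to 9886 CPM in the other microglia libraries and 370 to 1069 CPM in the infiltrating cells. In the latter, 10 neutrophil markers summed to 2774 to 13216 CPM and 8 monocyte markers to 830 to 1345 CPM. The 6 markers of border-associated macrophages summed to 1009 to 1921 CPM in infiltrating cells and 4.69 to 219 CPM in microglia. All 10 neutrophil markers had counts in every group, and 1 of them, Csf3r, was also high in sham microglia (158 to 187 CPM). Sham library 3 stood apart with 249 CPM of the neutrophil gene S100a8, against 0.829 CPM in sham library 1, and fold changes against sham are therefore also given without it. Sham library 1 had the highest summed level of 12 cell dissociation genes among the microglia libraries, 991 CPM against 141 and 187 CPM in the other sham libraries.

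Il1a and Il1b are neighbors on chromosome 2 of GRCm38 (129299610 to 129309972 and 129364570 to 129371139, both on the minus strand). They are 54.6 kb apart with 0 protein-coding genes between them. Il1rn lies elsewhere on the same chromosome (24336853 to 24351494, plus strand). Il1r2 and Il1r1 are neighbors on chromosome 1 (40074079 to 40125231 and 40225080 to 40317257, plus strand), 99.8 kb apart. Il1rap is on chromosome 16 (26581704 to 26730117, plus strand) and Il18 on chromosome 9 (50554827 to 50581840, plus strand). The library kit did not mark strand, so reads from exons that overlap on opposite strands cannot be told apart. The overlaps given here are between whole gene spans, introns included, and shared exons were not measured. Il1a shares 8217 bases with Gm14023 on the opposite strand (group means 3.31 to 14.5 CPM), and Il1b shares 1243 bases with Il1bos (at most 3.85 CPM). Gm37347 lies within Il1r2 (3071 bases, 11.5 and 10.0 CPM on average in WT and Fgg γ390–396A infiltrating cells), and Gm16894 shares 9624 bases with Il1r2 on the opposite strand (0.295 CPM on average in sham microglia, above Il1r2, and 1.77 CPM in WT infiltrating cells). Il18 shares 355 bases with Bco2 and 4507 with Tex12 on the opposite strand, and mean Bco2 was 13.6 CPM in sham and 4.73 CPM in WT microglia at 1 d, lower in the same direction as Il18. Whether reads from shared sequence had a part in this was not tested. The 250 bases before the start of 4 members are shown because neighboring genes among them differed in their response. Capitals mark matches to AP-1 (TGANTCA) or to the TATA box (TATAAA) on either strand. They are RefSeq windows on GRCm38.p6, which listed all 7 members, and are written 5′ to 3′ on the strand of the gene.
Il1a promoter, chr2:129309973-129310222, minus strand: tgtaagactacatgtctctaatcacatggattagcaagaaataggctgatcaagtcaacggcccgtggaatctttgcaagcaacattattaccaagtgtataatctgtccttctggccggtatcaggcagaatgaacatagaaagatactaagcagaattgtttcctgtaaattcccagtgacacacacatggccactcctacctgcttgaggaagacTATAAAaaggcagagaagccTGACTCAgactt
Il1b promoter, chr2:129371140-129371389, minus strand: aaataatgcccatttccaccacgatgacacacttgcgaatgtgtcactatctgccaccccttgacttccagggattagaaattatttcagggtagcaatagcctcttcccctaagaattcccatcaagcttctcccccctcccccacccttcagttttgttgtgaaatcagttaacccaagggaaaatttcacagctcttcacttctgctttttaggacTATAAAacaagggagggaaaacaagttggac
Il1rn promoter, chr2:24336610-24336859, plus strand: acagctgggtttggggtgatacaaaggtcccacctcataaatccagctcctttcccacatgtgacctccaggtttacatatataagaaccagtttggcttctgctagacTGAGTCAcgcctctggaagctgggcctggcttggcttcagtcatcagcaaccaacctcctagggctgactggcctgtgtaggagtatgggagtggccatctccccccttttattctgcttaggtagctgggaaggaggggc
Il1r2 promoter, chr1:40085843-40086092, plus strand: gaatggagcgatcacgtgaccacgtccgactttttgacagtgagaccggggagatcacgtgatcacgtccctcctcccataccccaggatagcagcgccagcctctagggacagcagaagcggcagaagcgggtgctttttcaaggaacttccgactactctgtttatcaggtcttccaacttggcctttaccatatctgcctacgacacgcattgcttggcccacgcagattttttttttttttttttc
The Il1a window held the AP-1 letters 12 bases and the TATA letters 32 bases before the start, and the Il1b window held the TATA letters at 31 bases. The Il1rn window held the AP-1 letters at 141 bases, and the Il1r2 window held neither. RefSeq lists 2 more windows for Il1rn, at starts within the gene, which held none of these motifs. The RefSeq start of Il1r2 also lies inside the gene as GENCODE M21 bounds it, so its window is not before the start given by those coordinates. Of 32851 promoter windows of the same length, 6.75% held the AP-1 letters, 12.4% the TATA letters and 7.25% an NF-κB motif. That motif was searched as 1 fixed pattern, so a site that departs from it would be missed. It was absent from these 4 windows, while a window of Il1r1, not shown, held a match 232 bases before the start. A match describes the letters of the window and not a bound site.

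In WT microglia at 1 d after CCI, 3 of the 7 genes rose against sham microglia, namely Il1b, Il1rn and Il1r2, and 0 fell. A gene was called at a log2 fold change beyond 1 in either direction and an adjusted p under 0.05 by edgeR's quasi-likelihood test, which called 12.3% of all genes tested (8.06% higher and 4.21% lower). In Fgg γ390–396A microglia at 1 d, 2 of 7 rose against the same sham libraries, where 6.64% of all genes were called (5.49% higher and 1.15% lower). The median log2 fold change of the 7 genes was 0.76 in WT and 0.71 in Fgg γ390–396A microglia, against 0 for all genes in both.

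Il1rn, the antagonist, had the lowest p of the 7 genes against sham in both genotypes at 1 d. Its level was 0.478, 2.28 and 4.45 CPM in the sham libraries, 151, 152 and 282 CPM in WT microglia at 1 d, and 33.0, 49.9 and 61.1 CPM in Fgg γ390–396A microglia at 1 d. The 3 groups did not overlap, and every sham library was below every injured library. The log2 fold change against sham was 6.33 ± 0.61 (SE, n = 3 per group, edgeR adjusted p = 8.51e-07) in WT and 4.30 ± 0.56 (adjusted p = 4.29e-05) in Fgg γ390–396A microglia. Without sham library 3 it was 7.16 and 5.14. With each library left out in turn it ran from 5.84 to 7.16 in WT and from 3.82 to 5.14 in Fgg γ390–396A microglia.

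Il1b, the ligand that needs caspase cleavage, rose less. It measured 6.60, 6.80 and 18.2 CPM in sham, 144, 33.2 and 66.5 CPM in WT microglia at 1 d, and 43.5, 22.7 and 54.7 CPM in Fgg γ390–396A microglia at 1 d. All injured libraries exceeded all sham libraries, but the genotypes overlapped. The log2 fold change was 2.94 ± 0.58 (edgeR adjusted p = 0.00107) in WT and 1.93 ± 0.56 (adjusted p = 0.0303) in Fgg γ390–396A microglia. Without sham library 3 the WT value was 3.60, and it ran from 2.24 to 3.60 as each library was left out in turn. The second call was lost without Fgg γ390–396A library 1 or 3 (adjusted p = 0.0589 and 0.129) or sham library 1 or 2 (0.138 and 0.139). It held without sham library 3, at 2.59 (adjusted p = 0.0122).

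Il1r2, the decoy receptor, was nearly absent from sham microglia, with 0.0637, 0 and 0 CPM, which is 2 counts in all. It measured 3.78, 0.688 and 0.429 CPM in WT microglia at 1 d and 1.75, 0.252 and 0 CPM in Fgg γ390–396A microglia at 1 d, so that 1 library of each genotype held most of the signal. The pooled level was 79.1 times that of sham in WT (129 counts, exact 95% interval 21.5 to 661, counting error only) and 47.0 times in Fgg γ390–396A microglia (127 counts, 12.8 to 392). These intervals take the scaled counts as if they were reads. The WT increase passed (edgeR adjusted p = 0.00823) but not without WT library 1 (adjusted p = 0.0711). Without sham library 3 it passed (adjusted p = 0.0435). The Fgg γ390–396A increase did not pass (adjusted p = 0.0589), although DESeq2 called it (adjusted p = 0.0148), as did edgeR with no filter on low counts (adjusted p = 0.0491). Without sham library 3 its adjusted p was 0.196 by edgeR, and without Fgg γ390–396A library 3 it passed (0.0289).

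The other 4 genes did not pass at 1 d. Il1a, the ligand that is active as a precursor, overlapped between sham (21.3 to 34.8 CPM), WT (25.8 to 71.6 CPM) and Fgg γ390–396A microglia (34.1 to 57.4 CPM), so the neighboring ligand genes differed in their call. Il18 was 13.8, 9.0 and 8.67 CPM in sham and 5.73, 8.97 and 2.54 CPM in WT microglia. Its log2 fold change was -0.87 ± 0.41 (edgeR adjusted p = 0.177) and -0.99 without sham library 3. With each library left out in turn it ran from -1.30 to -0.48. Il1rap ran from 1.59 to 3.59 CPM in sham and from 3.90 to 4.92 CPM in WT microglia, which did not overlap, with a log2 fold change of 0.76 ± 0.34 (adjusted p = 0.146). Without sham library 3 the Il1rap value was 1.12 (adjusted p = 0.0480) and passed. It ran from 0.52 to 1.12 as each library was left out in turn, and passed in no other of these fits. Il1r1, the signaling receptor, was near the limit of detection in all 3 groups, at 0.291 ± 0.144 CPM in sham, 0.402 ± 0.268 CPM in WT and 0.473 ± 0.259 CPM in Fgg γ390–396A microglia (SD, n = 3).

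**Figure D1:**
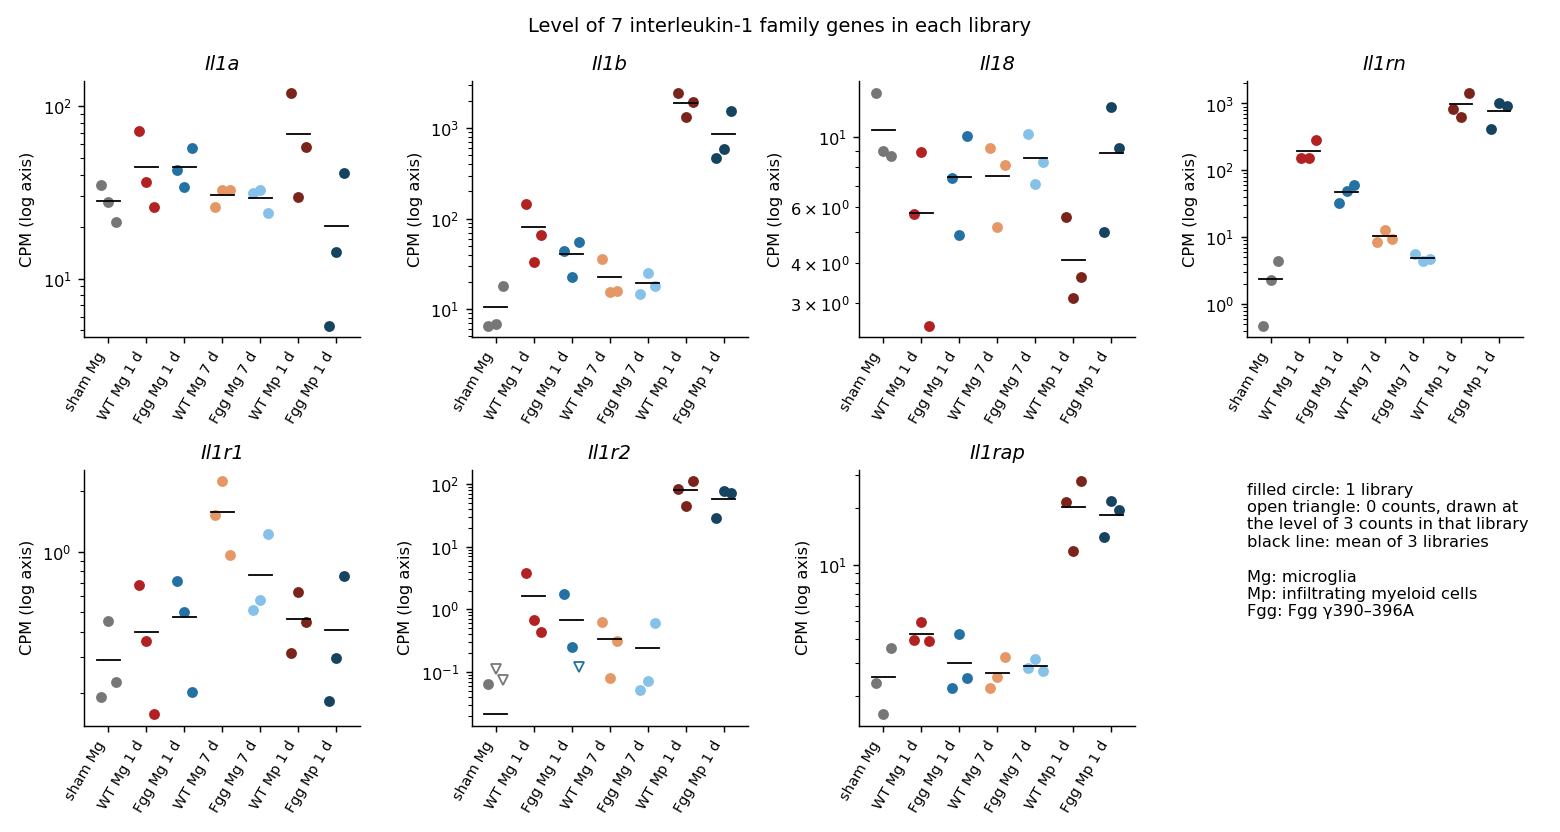
Level of each of the 7 genes in each library, in CPM on a log axis, by group of 3 libraries, with the group mean as a line and open triangles for libraries with 0 counts. Il1rn in microglia goes from 0.478 to 4.45 CPM in sham to 33.0 to 282 CPM at 1 d, while Il1a overlaps between those groups and Il1r1 is at most 2.24 CPM in every library.

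At 7 d after CCI, Il1rn was the 1 member of 7 that still passed against sham in WT microglia, and 0 passed in Fgg γ390–396A microglia. The test called 2.02% of all genes in WT (1.93% higher and 0.0924% lower) and 0.663% in Fgg γ390–396A microglia. Il1rn measured 8.60, 13.0 and 9.47 CPM in WT and 5.58, 4.34 and 4.66 CPM in Fgg γ390–396A microglia at 7 d, so that the latter overlapped with the sham libraries. The log2 fold change was 2.09 ± 0.52 (edgeR adjusted p = 0.0318) in WT and 1.00 ± 0.51 (adjusted p = 0.665) in Fgg γ390–396A microglia. The Fgg γ390–396A value was 1.84 without sham library 3 (adjusted p = 0.179) and ran from 0.52 to 1.84 as each library was left out in turn. The WT call was lost without any 1 of its own libraries (adjusted p from 0.0564 to 0.124) and without sham library 1 or 2 (0.0902 and 0.127). Without sham library 3 the log2 fold change was 2.93 (adjusted p = 0.00690).

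Il1r1 had its highest mean level of all groups in WT microglia at 7 d, at 1.53, 2.24 and 0.966 CPM, above all 3 sham libraries (0.191 to 0.456 CPM). In Fgg γ390–396A microglia at 7 d it ran from 0.512 to 1.22 CPM, overlapping with WT. The log2 fold change against sham was 2.43 ± 0.85 in WT, which did not pass with edgeR (adjusted p = 0.189) but did with DESeq2 (adjusted p = 0.0154). It was 1.39 ± 0.83 in Fgg γ390–396A microglia (edgeR adjusted p = 0.717). The sham group held 27 counts of Il1r1 in all, and without sham library 3 the values were 2.28 and 1.24 (edgeR adjusted p = 0.419 and 0.925). Il1b at 7 d was 35.8, 15.4 and 16.1 CPM in WT and 14.7, 25.3 and 17.9 CPM in Fgg γ390–396A microglia, which overlapped with sham library 3. Neither log2 fold change passed (1.09 ± 0.55 and 0.87 ± 0.54, adjusted p = 0.454 and 0.736). Without sham library 3 they were 1.74 and 1.53, and neither passed (adjusted p = 0.201 and 0.507). As each library was left out in turn they ran from 0.54 to 1.74 in WT and from 0.62 to 1.53 in Fgg γ390–396A microglia.

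Between 1 d and 7 d, 2 of 7 genes fell in WT microglia (7.06% of all genes called) and 1 of 7 fell in Fgg γ390–396A microglia (3.54%). Il1rn fell by 4.23 ± 0.55 on the log2 scale in WT (edgeR adjusted p = 5.65e-05) and by 3.30 ± 0.53 in Fgg γ390–396A microglia (adjusted p = 0.000755). The 1 d and 7 d libraries of Il1rn did not overlap in either genotype. Il1b fell by 1.86 ± 0.55 in WT (adjusted p = 0.0355), where WT library 1 at 7 d (35.8 CPM) was above WT library 2 at 1 d (33.2 CPM). This call was lost without WT library 1 or 3 at 1 d (adjusted p = 0.204 and 0.0538) or WT library 2 or 3 at 7 d (0.147 and 0.145). The Il1b value was -1.06 ± 0.54 in Fgg γ390–396A microglia (adjusted p = 0.343). Il1r1 went the other way in WT, with a log2 fold change of 1.96 ± 0.84 that did not pass with edgeR (adjusted p = 0.165) but did with DESeq2 (adjusted p = 0.0253). A test of whether the change over time differed between genotypes called 0 of 7 members with either tool and 0% of all genes with edgeR. Its log2 value for Il1rn was 0.93 ± 0.69 (adjusted p = 1).

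**Figure D2:**
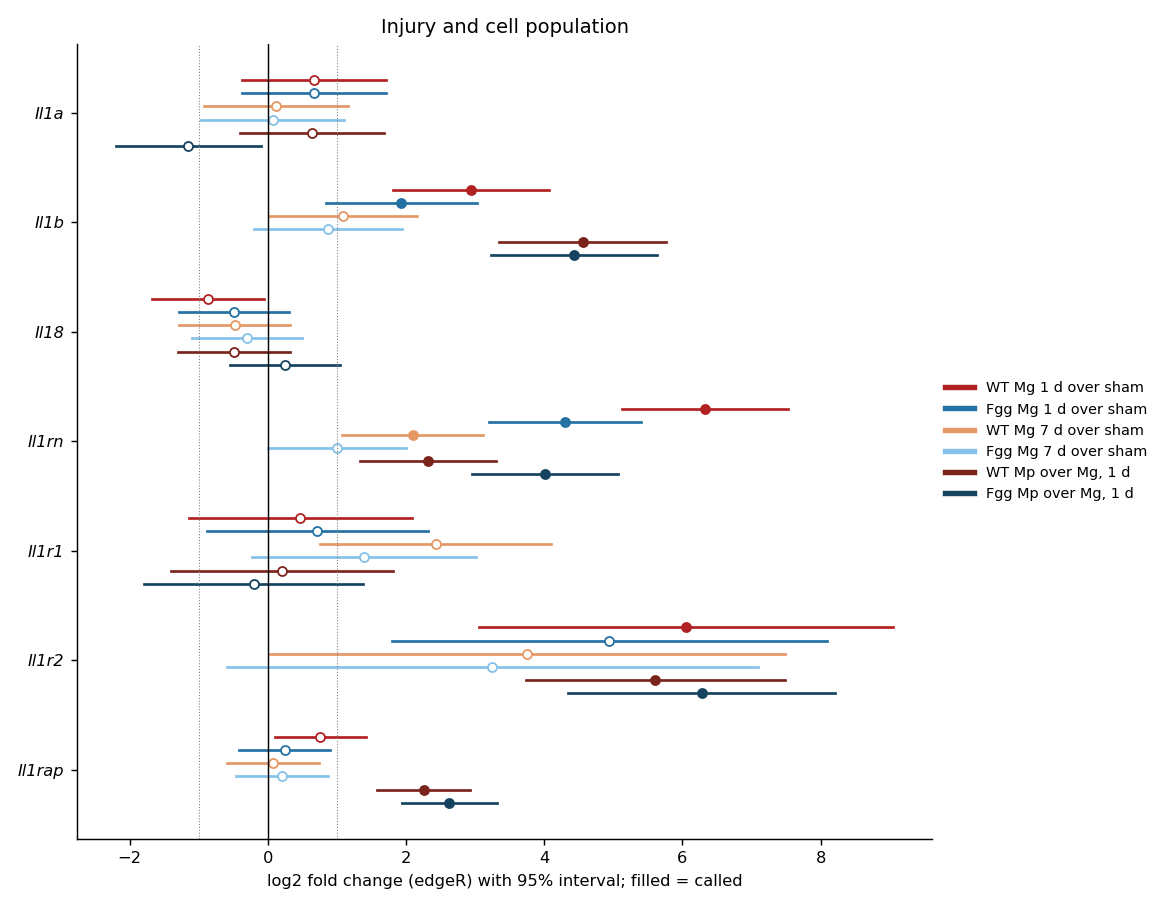
Log2 fold change (edgeR) of each of the 7 genes in microglia (Mg) over sham and in infiltrating myeloid cells (Mp) over microglia, with 95% intervals as bars, filled points where called and dotted lines at -1 and 1. Il1rn is called in all of them but Fgg γ390–396A microglia at 7 d over sham, Il1a, Il18 and Il1r1 are called in none, and the wide Il1r2 bars against sham rest on 2 sham counts.

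The infiltrating myeloid cells held more of 4 of the 7 genes, Il1b, Il1rn, Il1r2 and Il1rap, than microglia. Each of the 4 rose over microglia of the same genotype at 1 d in both WT and Fgg γ390–396A mice. The test called 11.9% of all genes between WT populations (5.61% higher and 6.31% lower in infiltrating cells) and 16.7% between Fgg γ390–396A populations. The median log2 fold change of the 7 genes was 2.25 in WT and 2.63 in Fgg γ390–396A mice, against 0 and -0.13 for all genes. The second of these medians over all genes was -0.0076 with DESeq2 size factors. The 12 cell dissociation genes summed to 821 to 2523 CPM in infiltrating cells and 81.6 to 429 CPM in microglia at 1 d, and their part in these differences was not tested.

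Il1b measured 2467, 1312 and 1951 CPM in WT and 471, 591 and 1538 CPM in Fgg γ390–396A infiltrating cells. Its lowest infiltrating library was above its highest microglia library, 144 CPM. The log2 fold change over microglia was 4.56 ± 0.62 (edgeR adjusted p = 3.25e-05) in WT and 4.43 ± 0.61 (adjusted p = 3.28e-05) in Fgg γ390–396A mice. Il1a did not follow its neighbor, at 119.8, 29.5 and 58.1 CPM in WT and 5.33, 14.2 and 40.7 CPM in Fgg γ390–396A infiltrating cells. Its log2 fold change over microglia was 0.63 ± 0.53 (edgeR adjusted p = 0.466) in WT and -1.15 ± 0.54 (adjusted p = 0.142) in Fgg γ390–396A mice, of opposite sign. The WT value was -0.024 without WT infiltrating library 1, and the other was -2.18 and passed (adjusted p = 0.00606) without Fgg γ390–396A infiltrating library 3. That Fgg γ390–396A value ran from -2.18 to -0.59 as each library was left out in turn.

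Il1rn measured 831, 637 and 1449.7 CPM in WT and 409, 1000.3 and 911 CPM in Fgg γ390–396A infiltrating cells, above every microglia library. The log2 fold change over microglia was 2.32 ± 0.50 (edgeR adjusted p = 0.00283) in WT and 4.01 ± 0.54 (adjusted p = 2.37e-05) in Fgg γ390–396A mice. The difference between these values, 1.69 ± 0.68, did not pass (adjusted p = 0.539), and the test of that difference called 0 of 7 members and 0.0462% of all genes.

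Il1r2 measured 83.9, 44.9 and 110.1 CPM in WT and 28.6, 76.0 and 71.1 CPM in Fgg γ390–396A infiltrating cells, where it stood well above the signaling receptor. Il1r1 was 0.466 ± 0.159 CPM in WT and 0.411 ± 0.304 CPM in Fgg γ390–396A infiltrating cells (SD, n = 3), so that mean Il1r2 was 171 and 143 times mean Il1r1 per length. Il1r2 rose over microglia by a log2 fold change of 5.61 ± 0.96 in WT (edgeR adjusted p = 0.000346) and 6.28 ± 0.99 in Fgg γ390–396A mice (adjusted p = 0.000127). Il1rap, the co-receptor that the decoy can also bind, was 21.5, 11.8 and 27.7 CPM in WT and 14.1, 21.9 and 19.4 CPM in Fgg γ390–396A infiltrating cells, above all microglia libraries. Its log2 fold change was 2.25 ± 0.34 in WT (adjusted p = 0.000112) and 2.63 ± 0.35 in Fgg γ390–396A mice (adjusted p = 2.02e-05). Il18 was 4.09 ± 1.30 CPM in WT and 8.86 ± 3.70 CPM in Fgg γ390–396A infiltrating cells and overlapped with microglia at 1 d in both genotypes.

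Between genotypes, 0 of 7 members were called by edgeR at an adjusted p under 0.1 in microglia at 1 d, in microglia at 7 d or in infiltrating cells at 1 d, where it called 0.0546%, 0.0378% and 0.453% of all genes. At an unadjusted p under 0.05 by edgeR there were 1, 1 and 3 of 7. The share of all genes at that threshold was not taken, so these counts cannot be read as a difference between genotypes. DESeq2 called 1, 0 and 1 of 7, and 104, 80 and 841 of all 23815 genes, against 13, 9 and 108 with edgeR. The median log2 fold change of the 7 genes in Fgg γ390–396A against WT was -0.51, -0.21 and -0.33, against 0 for all genes.

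Il1rn was lower in every Fgg γ390–396A microglia library than in every WT library at 1 d (33.0 to 61.1 CPM against 151 to 282 CPM) and again at 7 d (4.34 to 5.58 CPM against 8.60 to 13.0 CPM). It was the 1 of 7 members whose groups did not overlap at each time, against 8.72% of all genes at 1 d and 11.1% at 7 d. The log2 difference at 1 d was -2.02 ± 0.50 (95% interval -3.00 to -1.05), which did not pass with edgeR (adjusted p = 0.448). It passed with DESeq2 (-2.06, adjusted p = 0.00740). At 7 d the difference was -1.09 ± 0.50 (edgeR adjusted p = 1). In infiltrating cells the Il1rn groups overlapped, with a log2 difference of -0.33 ± 0.48 (adjusted p = 0.895) that was 0.028 without Fgg γ390–396A library 1 and 0.076 without WT library 3.

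In infiltrating cells, Il1a had the lowest p of the 7 genes between genotypes, with a log2 difference of -1.78 ± 0.55 (95% interval -2.85 to -0.71). It did not pass with edgeR (adjusted p = 0.214) and passed with DESeq2 (adjusted p = 0.0350) and with edgeR without Fgg γ390–396A infiltrating library 3 (-2.82, adjusted p = 0.0147). WT library 2 (29.5 CPM) was below that library (40.7 CPM), so the groups overlapped. The Il1a difference ran from -2.82 to -1.12 as each library was left out in turn. Il1b differed by -1.14 ± 0.54 (adjusted p = 0.428) and Il18 by 1.11 ± 0.41 (adjusted p = 0.319), and 0 of 7 members had groups that did not overlap, against 8.02% of all genes. Neutrophil markers summed to 3566 to 13216 CPM in WT and 2774 to 5815 CPM in Fgg γ390–396A infiltrating cells, and their part in these differences was not tested.

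The genotype difference of Il1a in infiltrating cells, set against that in microglia, had a log2 value of -1.78 ± 0.76 (edgeR adjusted p = 0.547). This value was -2.82 without Fgg γ390–396A infiltrating library 3 and then passed (adjusted p = 0.0947). It ran from -2.82 to -1.12 as each library was left out in turn. For Il1b in microglia at 1 d the genotype difference was -1.01 ± 0.54 (adjusted p = 0.890) and -0.31 without WT library 1. For Il1r2 it was -1.11 ± 0.89 (adjusted p = 0.913) and 0.43, of the opposite sign, without that library. Il1r1 at 7 d differed by -1.04 ± 0.81 (95% interval -2.62 to 0.55).

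**Figure D3:**
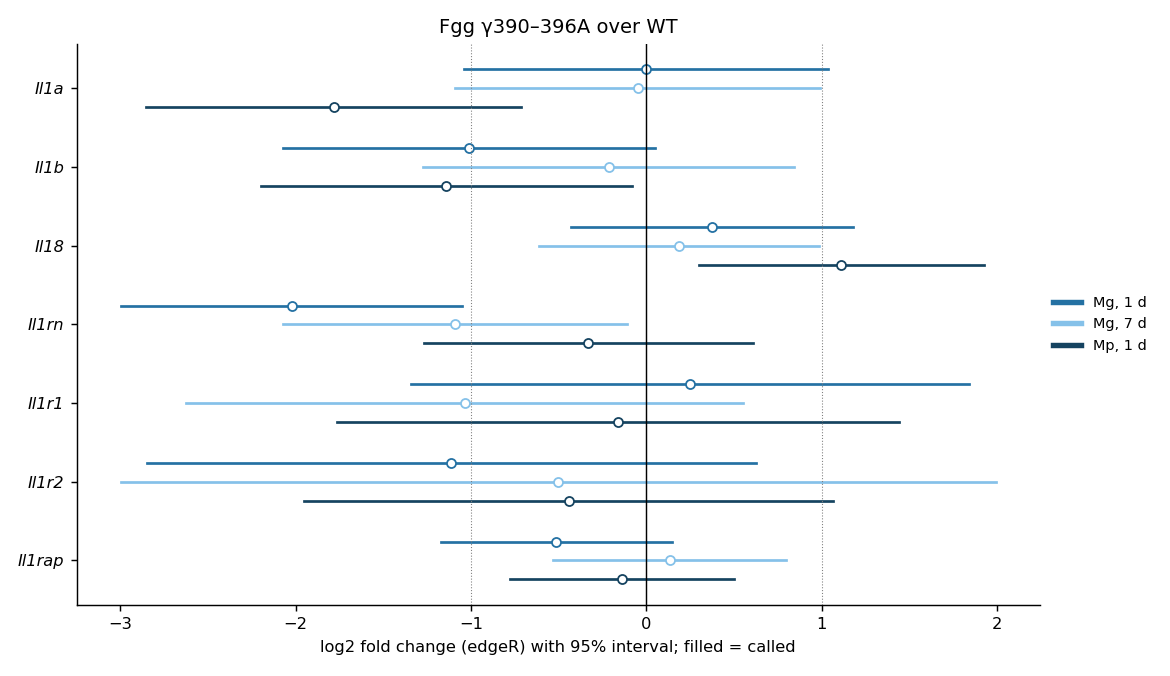
Log2 fold change (edgeR) of the 7 genes in Fgg γ390–396A over WT libraries, in microglia (Mg) at 1 d and 7 d and infiltrating myeloid cells (Mp) at 1 d, with 95% intervals as bars and dotted lines at -1 and 1. The bars are normal intervals from the SE and are narrower than the F test of edgeR implies. All points are open, since 0 of 7 genes were called, and the interval of Il1rn in microglia at 1 d runs from -3.00 to -1.05.

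Ratios within a library do not depend on the scaling between libraries, and are given as log2 of the ratio of CPM after adding 0.5 CPM (mean ± SD, n = 3). Groups were compared by a two-sided exact permutation test over libraries, whose smallest possible p is 0.1. The ratio of antagonist to ligand, Il1rn to Il1b, was -2.06 ± 0.74 in sham, 1.44 ± 1.19 in WT and 0.29 ± 0.76 in Fgg γ390–396A microglia at 1 d, and -0.99 ± 0.91 and -1.86 ± 0.55 at 7 d. The ratio was higher at 1 d than in sham by 3.49 in WT and by 2.35 in Fgg γ390–396A microglia, with no overlap (exact p = 0.1 for each). Per length, Il1rn therefore exceeded Il1b in mean log2 ratio at 1 d in microglia of both genotypes and lay below it in sham and at 7 d. At 1 d, Fgg γ390–396A library 1 was at -0.39 and WT library 1 at 0.064, and the means were not tested against 0. In infiltrating cells the ratio was -1.01 ± 0.57 in WT, below WT microglia by 2.45 (exact p = 0.1). It was -0.07 ± 0.77 in Fgg γ390–396A mice, where the populations overlapped (difference -0.36, exact p = 0.6). Between genotypes the groups overlapped in microglia at 1 d (difference -1.15, exact p = 0.3) and in infiltrating cells (0.95, exact p = 0.2).

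In microglia Il1r2 and Il1r1 lay mostly under the added 0.5 CPM, which therefore largely sets their ratio there. With that addition the ratio of decoy to signaling receptor was -0.59 ± 0.32 in sham microglia, 0.94 ± 0.79 in WT and -0.01 ± 0.77 in Fgg γ390–396A microglia at 1 d, and 6.29 ± 0.84 and 5.95 ± 0.59 in infiltrating cells. It was higher in infiltrating cells than in microglia by 5.36 in WT and 5.95 in Fgg γ390–396A mice (exact p = 0.1 for each, no overlap), and by 5.71 and 7.28 with 0.1 CPM added instead. Mean Il1r2 over mean Il1r1 with nothing added was 0.073 in sham microglia, where Il1r2 had 2 counts, and 4.06 in WT and 1.41 in Fgg γ390–396A microglia at 1 d. The ratio of the ligands, Il1b to Il1a, was -1.50 ± 1.12 in sham, 0.74 ± 0.77 in WT microglia at 1 d, 4.95 ± 0.55 in WT infiltrating cells and 5.63 ± 0.62 in Fgg γ390–396A infiltrating cells. Infiltrating cells exceeded microglia by 4.22 and 5.83 (exact p = 0.1 for each), and WT microglia at 1 d exceeded sham by 2.24 (exact p = 0.1).

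**Figure D4:**
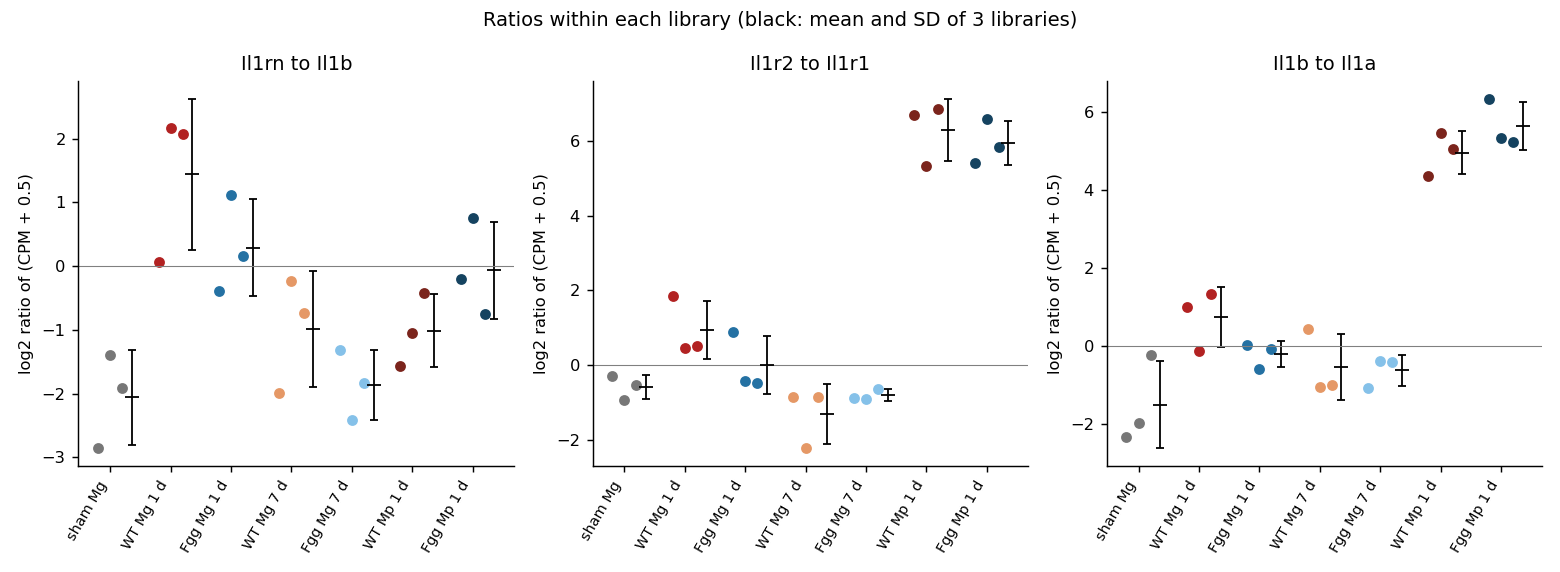
Log2 ratios within each library of Il1rn to Il1b, Il1r2 to Il1r1 and Il1b to Il1a, by group, with 3 libraries per group and their mean and SD. The Il1rn to Il1b mean runs from -2.06 in sham to 1.44 in WT microglia at 1 d, and the Il1r2 to Il1r1 mean is 6.29 and 5.95 in infiltrating cells against at most 0.94 in microglia, where the added 0.5 CPM largely sets it.

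Since infiltrating cells held far more Il1b, Il1rn and Il1r2 than microglia, each microglia library was set against the level that a share of infiltrating cell RNA would give. The share was taken from the neutrophil genes S100a8 and S100a9, a pair chosen after the values were seen, as their level in the library over their mean level in infiltrating cells of the same genotype at 1 d (WT for sham). It was 0.0204%, 0.949% and 6.56% in sham, 9.55%, 1.51% and 6.29% in WT and 7.36%, 1.13% and 0.557% in Fgg γ390–396A microglia at 1 d. The libraries with the highest Il1b and Il1r2 in each of the WT groups at 1 d and 7 d, library 1 in both, also had the highest share. In Fgg γ390–396A microglia at 1 d, library 1 had the highest Il1r2 (1.75 CPM) and the highest share. Il1b in that group was highest in library 3, which had the lowest share.

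Il1rn exceeded the level given by that share in 3 of 3 WT libraries at 1 d (92.9, 14.7 and 61.1 CPM from the share, against 151, 152 and 282 CPM measured) and in 2 of 3 Fgg γ390–396A libraries at 1 d. Il1b exceeded it in 1 of 3 WT libraries, library 2 with 28.8 CPM from the share and 33.2 CPM measured, and in 2 of 3 Fgg γ390–396A libraries. Il1r2 exceeded it in 0 of 12 injured microglia libraries. Il1a, Il1rap and Il18 exceeded it in all 15 microglia libraries. In sham microglia, Il1b, Il1rn and Il1r2 each exceeded the level from the share in 1 of 3 libraries. In sham library 3 the share gave 125 CPM of Il1b and 63.7 CPM of Il1rn, against 18.2 and 4.45 CPM measured. The share thus gave more than was measured in a library without impact, which limits what the counts for injured libraries can show. With the share taken from the whole neutrophil and monocyte lists (1.91% to 9.64% in WT and 2.05% to 8.63% in Fgg γ390–396A microglia at 1 d), Il1rn still exceeded it in 3 of 3 and 2 of 3 libraries, and Il1b in 0 of 3 and 2 of 3. That share counts Csf3r, which sham microglia also hold. With the monocyte list alone (0.637% to 6.56% in WT microglia at 1 d), Il1rn and Il1b both exceeded it in 3 of 3 WT and 2 of 3 Fgg γ390–396A libraries and Il1r2 in 1 of 3 and 0 of 3, so that the count for Il1b in WT turned on the markers used.

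At 7 d, Il1rn exceeded the share of S100a8 and S100a9 in WT libraries 2 and 3 but not in library 1 (70.3 CPM from the share and 8.60 CPM measured), and in 0 of 3 Fgg γ390–396A libraries. With the neutrophil and monocyte lists, or the monocyte list alone, it exceeded the share in 0 of 3 libraries of either genotype at 7 d. The part of infiltrating cells in the changes of Il1b, Il1rn and Il1r2 in microglia was not tested.

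**Figure D5:**
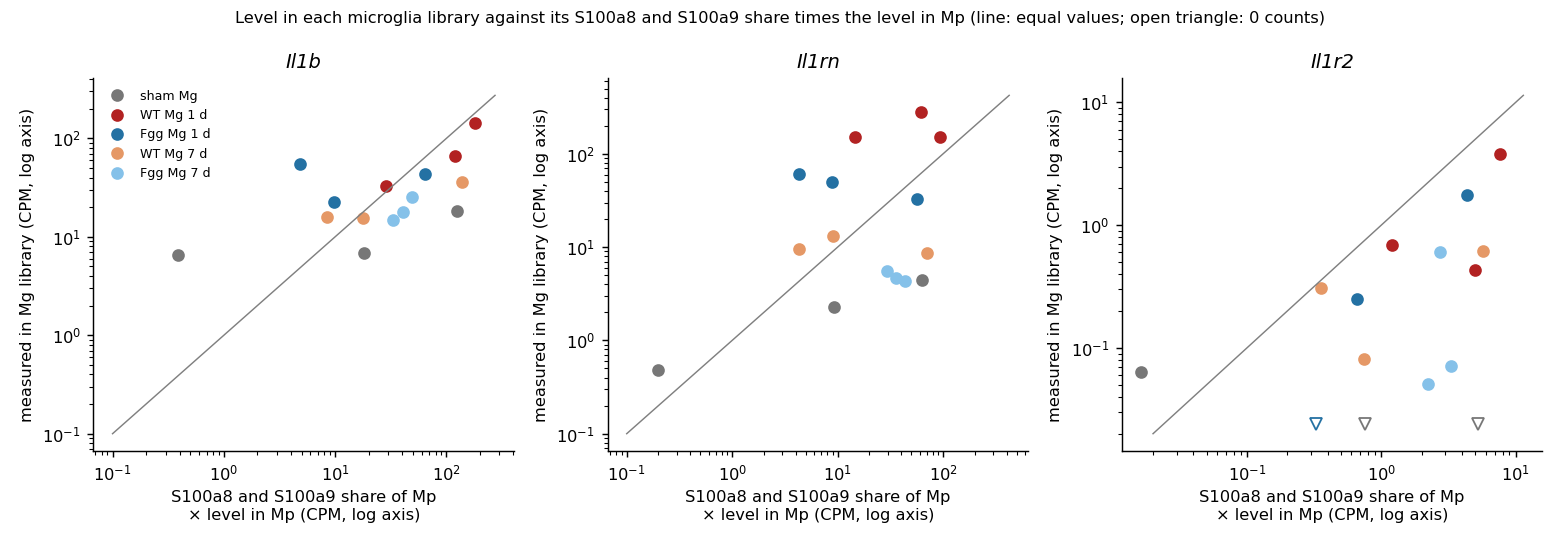
Measured level of Il1b, Il1rn and Il1r2 in each microglia library against the level that its share of S100a8 and S100a9 RNA would give, both in CPM on log axes, with the line of equality and open triangles for 0 counts. All 3 WT libraries at 1 d lie above the line for Il1rn, and 0 of the 12 injured libraries do for Il1r2. Of the sham libraries, 1 of 3 lies above the line for each gene.

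The other genes of the IL-1 system were read from 4 lists of 69 genes in all, of which 59 were tested. Of 9 tested genes among 18 other family members, 2 rose and 1 fell in WT microglia at 1 d (8.06% and 4.21% of all genes), with a list median of 0.86 on the log2 scale against 0 for all genes. Il18rap, a subunit of the IL-18 receptor, rose by 2.64 ± 0.63 (edgeR adjusted p = 0.00511), and Il1f9, which encodes the ligand IL-36γ, rose by 3.56 ± 1.07 (adjusted p = 0.0253). Il1rl2, the receptor for IL-36, fell by 1.11 ± 0.33 (adjusted p = 0.0237). Il18bp, a secreted inhibitor of IL-18, ran from 1.23 to 3.04 CPM in sham and from 8.74 to 14.4 CPM in WT and 5.34 to 12.3 CPM in Fgg γ390–396A microglia at 7 d. It was the 1 gene of this list that rose at 7 d in each genotype.

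Of 12 genes of IL-1 processing and release, 0 rose and 2 fell in WT microglia at 1 d, where 8.06% of all genes tested were called higher and 4.21% lower. The list median was -0.46 on the log2 scale, against 0 for all genes. P2rx7, the ATP-gated channel that triggers IL-1β release, was 99.2 to 120.6 CPM in sham and 39.2 to 54.3 CPM in WT microglia, and fell by 1.23 ± 0.26 (edgeR adjusted p = 0.00199). Txnip, which binds thioredoxin and NLRP3, fell by 1.63 ± 0.31 in WT (adjusted p = 0.000700) and by 1.37 in Fgg γ390–396A microglia (adjusted p = 0.00486), where it was the 1 gene called. Between the populations, 3 rose and 1 fell in WT infiltrating cells (5.61% and 6.31% of all genes), with Txnip among the higher genes and P2rx7 the lower one.

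Of 20 genes of IL-1 receptor signaling, 1 rose and 3 fell in WT microglia at 1 d (8.06% and 4.21% of all genes), with a median of -0.35 against 0 for all genes. Irak2, a kinase of the receptor complex, fell by 1.33 ± 0.20 (edgeR adjusted p = 0.000103), Mapk14, the p38α kinase, by 1.08 ± 0.18 (adjusted p = 0.000204) and Peli2, a ubiquitin ligase for IRAK proteins, by 1.4 ± 0.29 (adjusted p = 0.00167). Irak3, an inhibitor of the complex that is named as the 1 gene that rose, went from 0.797 to 2.16 CPM in sham to 3.08 to 3.70 CPM. Irak2 and Peli2 also fell in Fgg γ390–396A microglia, and 0 of the 20 passed at 7 d in either genotype.

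Of 18 tested genes that respond to IL-1, 6 rose and 0 fell in WT microglia at 1 d (8.06% and 4.21% of all genes), and 3 rose in Fgg γ390–396A microglia (5.49% of all genes). The list medians were 1.80 and 0.27, against 0 for all genes. Ccl2, a monocyte chemokine, rose by 5.27 ± 0.49 (edgeR adjusted p = 5.5e-07) in WT and was the 1 gene of this list called at 7 d in both genotypes. Cxcl2, a neutrophil chemokine, rose by 6.70 ± 1.08 in WT (adjusted p = 0.000164). Ptgs2, the inducible cyclooxygenase, was 0.0956 to 0.302 CPM in sham, 27.6 to 48.5 CPM in WT and 4.86 to 12.5 CPM in Fgg γ390–396A microglia at 1 d, groups that did not overlap. It was the only one of the 59 tested genes of these lists called between genotypes in any of the 3 comparisons, with a log2 difference of -2.20 ± 0.40 in microglia at 1 d (adjusted p = 0.0630).

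By Pearson correlation of log2 CPM over all 21 libraries and 9709 genes, given as a description since the libraries share group and cell population, the patterns most like Il1b were those of Pim1 (r = 0.99) and Thbs1 (0.98). For Il1rn they were Cd300ld (0.99) and Cd44 (0.98), for Il1r2 S100a4 and Clec4e (both 0.97), and for Il1rap Litaf (0.97) and Cast (0.96). Likeness was lower for Il1a, with Snapc1 at 0.80 and Maip1 at 0.79, for Il18, with Tmc6 and Rmdn1 both at 0.83, and for Il1r1, with Ly9 at 0.73 and Cd83 at 0.70. Among the members, r was 0.91 for Il1b with Il1rn and 0.94 for Il1b with Il1r2, but 0.14 for Il1a with Il1b.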

How the data were processed

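The authors aligned and quantified the RNA-seq reads with the nf-core pipeline and salmon on GRCm38, and deposited length-scaled expected counts per gene (their methods name R 4.2.0 and DESeq2 1.36.0). Whether the counting used strand is not given in the sources used here. The counts were rounded to whole numbers, and 45143 of 45706 identifiers were matched to GENCODE M21. All 21 libraries entered 1 fit with a mean per group (edgeR 4.0.16, quasi-likelihood test, TMM, at least 5 counts over all libraries), and p-values were adjusted over 23815 genes by the Benjamini-Hochberg method. A call needed a log2 fold change past 1 in either direction together with an adjusted p below 0.05, or below 0.1 between genotypes and for interactions. SE is the absolute log2 fold change over the square root of the F statistic. The 95% intervals of log2 fold changes are normal intervals from that SE and are narrower than the F test implies. Il1b in WT microglia at 7 d over sham had 0.0138 to 2.16 at an unadjusted edgeR p of 0.0616. Depth was 18896957 to 51875767 counts per library. Intervals on counts take the rounded, scaled counts as if they were reads, and cover counting error only.

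The members, gene lists and marker lists were chosen with earlier results of these data known. Of each pathway list, at most 4 genes were named by the smallest adjusted p in WT microglia at 1 d against sham, with Irak3 as an exception. Alternatives were DESeq2 1.42.0, its size factors, edgeR's own filter on low counts or no filter, a fit of the compared groups alone, a replicate block, another pseudocount and leaving out each library. Every same-number correlation of deviations was over 0.1 in 1 of 21 pairs of groups, WT with Fgg γ390–396A microglia at 1 d (0.449, 0.216 and 0.137). In that pair, Fgg γ390–396A library 2 with WT library 3 had 0.182, above the lowest same-number value. Pairing by replicate number was therefore not established. The analysis was tested on simulated counts.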

Additional observations from a re-analysis of the deposited data

How the results depend on the processing

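The count of members called changed under the following alternatives. With DESeq2 it was 3 for Fgg γ390–396A microglia at 1 d against sham, 3 for WT microglia at 7 d against 1 d, 2 for WT microglia at 7 d against sham, 1 for Fgg γ390–396A against WT microglia at 1 d and 1 for the same comparison in infiltrating cells. Of all 23815 genes, DESeq2 called 2128, 2425, 825, 104 and 841 in these comparisons, against 1582, 1682, 481, 13 and 108 with edgeR. With no filter the count of members was 3 for Fgg γ390–396A microglia at 1 d against sham, where 1584 of 25793 genes were called. With the compared groups alone the count of members was 0 for WT microglia at 7 d against sham (432 of 20454 genes called). It was 1 for WT microglia at 7 d against 1 d (1867 of 20077 genes called). With a pseudocount of 0.1 CPM, the log2 difference between Fgg γ390–396A infiltrating cells and microglia in Il1r2 to Il1r1 was 7.28. The cause of these changes was not tested.

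Leaving out 1 library at a time, the number of members called ran from 2 to 4 in WT and 1 to 2 in Fgg γ390–396A microglia at 1 d against sham, and from 0 to 1 and 0 to 0 at 7 d. It ran from 1 to 2 in WT and 1 to 1 in Fgg γ390–396A microglia at 7 d against 1 d, from 4 to 4 in WT and 4 to 5 in Fgg γ390–396A infiltrating cells against microglia, from 0 to 0 between genotypes in microglia at 1 d and at 7 d, from 0 to 1 in infiltrating cells, from 0 to 0 for genotype by time and from 0 to 1 for genotype by cell population. The number of all genes called moved as well. At 1 d against sham it ran from 2201 to 3264 in WT and from 1118 to 1958 in Fgg γ390–396A microglia. For WT microglia at 7 d it ran from 283 to 486 against sham and from 1186 to 2119 against 1 d. For Fgg γ390–396A infiltrating cells it ran from 3108 to 4275 against microglia and from 65 to 641 against WT. For genotype by cell population it ran from 0 to 150. The genotype difference of Il1r2 in microglia at 1 d ran from -3.43 to 0.43, its sign turning without WT library 1. The WT difference of Il1a between infiltrating cells and microglia ran from -0.024 to 1.15, its sign turning without WT infiltrating library 1. The genotype difference of Il1rn in infiltrating cells ran from -0.56 to 0.076, its sign turning without Fgg γ390–396A library 1 (0.028) or WT library 3 (0.076).

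With the replicate number as a block, the number of members called was the same in every comparison, including the genotype comparison of microglia at 1 d (0 called, Il1rn adjusted p = 0.162 by edgeR). The block was common to all 7 groups and was not a paired test of these groups.

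With 3 libraries per group, the log2 fold changes of Il1r1 and Il1r2 between microglia groups had standard errors of 0.81 to 1.96.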
